A study of Mus musculus with 46 samples.

Results

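The comparison was between the livers of pregnant mice treated with a particle-free sunscreen formulation and the livers of untreated pregnant mice. Its members were all arrays labelled formulation-only (6) and all labelled untreated (5) in the gestation experiment, 11 of the 46 arrays of the series. The formulation mice, at about 17 days of gestation, had a sunscreen without zinc oxide applied to their backs, with 6 applications in 4 days, while the untreated mice, at the same stage, had no sunscreen. All were SKH:QS mice, a hairless stock, and liver was taken on day 5 after an anaesthetic injection and cervical dislocation. The protocol describes collars that limit licking, mice housed singly and a light period longer than the dark one, with no separate statement for untreated mice. Each array held liver RNA of 1 mouse, given as a numbered biological replicate. Ages, the time of day at harvest and the batches of extraction or hybridisation are not in the labels used here.

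The other arms of the same experiment received the sunscreen with 68ZnO microparticles (5 mice) or 68ZnO nanoparticles (6 mice), and they entered the fit and are given beside the formulation values. A second experiment of the series applied the formulation to 6 virgin mice and left 6 virgin mice untreated, so it gave the same contrast in other animals with controls of its own. Levels are log2 intensities, differences are formulation minus untreated, and the value after ± is a standard error unless SD is named. Where a group has 6 livers its lowest, median and highest level are given, and for the 5 untreated livers each value in the order of replicates. The question the comparison addresses is what the sunscreen base, with its handling, changes in the liver of a pregnant mouse in the absence of zinc oxide.

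Hepatocytes make most of the proteins of blood plasma. When inflammation arises anywhere in the body, cytokines such as interleukin 6 and interleukin 1 reach the liver and raise the secretion of acute-phase proteins, among them serum amyloid A, the orosomucoids and haptoglobin, and in mice serum amyloid P component. Immediate early genes are a separate layer of response: they code for short-lived transcription factors and phosphatases whose transcripts come and go within a short time of a stimulus.

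The tissue label was checked against marker genes. Over 14 hepatocyte markers the mean level of an array was 11.96 to 12.15 in formulation livers and 11.94 to 12.06 in untreated livers. Albumin, Alb, lay between 13.57 and 13.62 in formulation livers and between 13.47 and 13.64 in untreated livers. The pancreatic acinar, lymphocyte and cholangiocyte lists had low mean levels, between 3.33 and 4.12, in both groups. Array medians were 3.98 to 4.13 over the pregnant arrays and 4.66 to 4.90 over the virgin arrays, so levels were not compared between the experiments, only differences within each. Correlations between pregnant arrays ran from 0.974 to 0.995 and 0 pairs were identical. The first principal component of the pregnant arrays held 21.8% of the variance. On it formulation arrays lay between -4.81 and 3.49 and untreated arrays between 6.36 and 19.5, without overlap. Micro ZnO replicates 3 and 4 stood apart at -47.1 and -31.2. Micro ZnO replicates 1 and 2 (12.66 and 13.24) and nano ZnO replicate 2 (10.85) lay within the untreated range. The interquartile range of an array averaged 3.11 ± 0.048 in formulation livers (SD, n = 6) and 3.17 ± 0.033 in untreated livers (SD, n = 5), a difference with p = 0.026 by a two-sided exact permutation test over 462 splits (adjusted p = 0.0455 over 2 comparisons of array summaries).

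In formulation livers of pregnant mice, 8 genes for acute-phase plasma proteins rose, and genes for 3 metabolic enzymes and a major urinary protein fell. Of 23410 probe sets tested with limma, 14 passed an adjusted p of 0.05 (0.0598%), 9 higher (0.0384%) and 5 lower (0.0214%), and these stood for 9 genes higher and 4 genes lower. Of the 9 genes that rose, 8 code for acute-phase proteins, and the other, Sult1e1, codes for estrogen sulfotransferase. The median difference over all probe sets was 0.00, and 12.3% of them had an unadjusted p under 0.05. The groups did not overlap for 2.36% of all probe sets and for 11 of the 13 genes called, all but Sult1e1 and Orm3. These genes were called on the same arrays, so the separation follows in part from the call and is not separate support for it. Leaving out 1 array at a time gave 5 called probe sets (without untreated replicate 1) to 19 (without untreated replicate 2). The count was under 10 for 9 of the 11 arrays left out, all but formulation replicate 5 and untreated replicate 2. With the interquartile range of each array in the model, 4 probe sets were called, those of Orm1, Orm2, Saa1 and Saa2. Without micro ZnO replicates 3 and 4, which entered only through the shared spread, 41 probe sets were called, and with only the formulation and untreated arrays fitted 53; both fits kept all 13 genes. Among those gained without the 2 micro ZnO arrays were Hpx, Lcn2, Rny3, Rbl1, Fgd6, Cyp2a22, Sdha, Acot2, Oit3 and Kdr, none of which was called over all pregnant arrays.

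**Figure D1:**
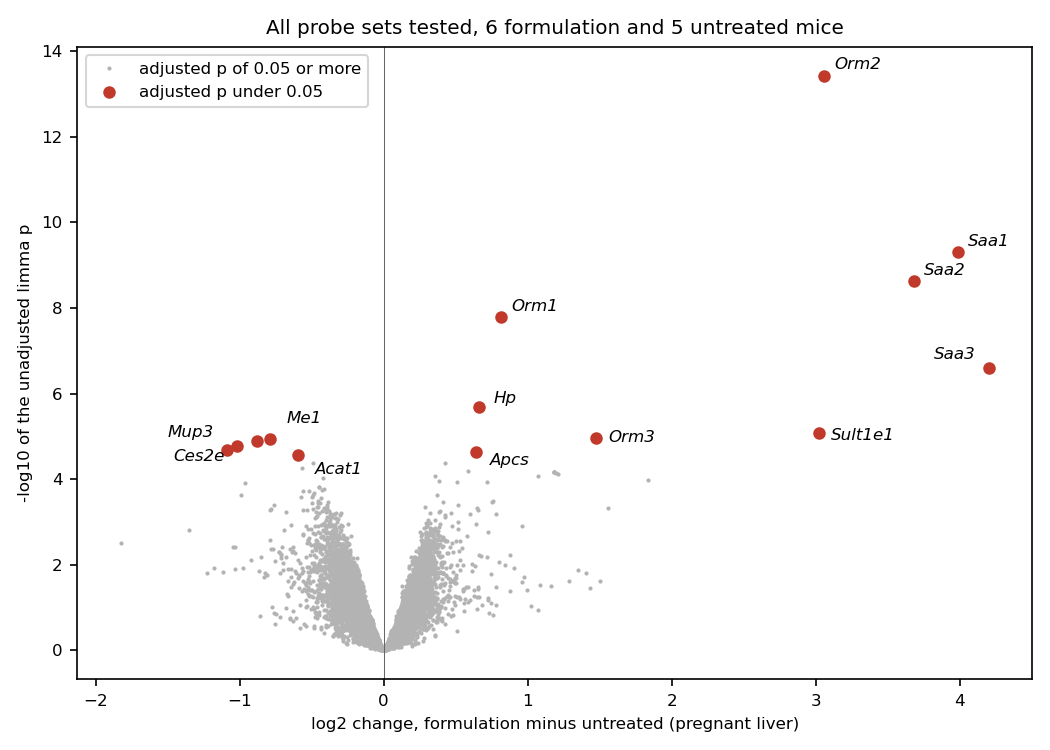
Each point is a probe set, with the log2 difference of formulation minus untreated pregnant livers on the x axis and -log10 of the unadjusted limma p on the y axis. Coloured points are the 14 called at an adjusted p under 0.05, and the 3 serum amyloid A genes, Orm2 and Sult1e1 lie farthest to the right.

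The serum amyloid A genes Saa3, Saa1 and Saa2 gave the widest differences among the genes called. Serum amyloid A proteins are carried on high-density lipoprotein, and Saa1 and Saa2 are the main forms that mouse liver secretes in an acute-phase response. Saa3 had a lowest, median and highest level of 8.23, 9.18 and 10.73 in formulation livers, against 5.21, 5.39, 4.86, 5.07 and 5.26 in untreated livers. The lowest formulation liver lay well above the highest untreated liver, and Saa3 rose by 4.20 ± 0.594 (18.4-fold, limma adjusted p = 0.00117). Saa1 had 9.05, 10.90 and 11.23 in formulation livers, against 6.74, 7.01, 7.07, 5.20 and 6.95 in untreated livers. The groups were apart, with untreated replicate 4 lowest of all, and the rise was 3.99 ± 0.401 (15.9-fold, limma adjusted p = 5.82e-06). Saa2 had 10.16, 12.06 and 12.46 in formulation livers, against 7.85, 8.52, 8.23, 6.90 and 8.59 in untreated livers. It rose by 3.68 ± 0.401 (12.8-fold, limma adjusted p = 1.83e-05) with no overlap, and untreated replicate 4 was again lowest. Saa1 and Saa2 are near-identical copies, so signal of one may be read by the probes of the other, and the part of this in either value was not tested.

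The orosomucoids, lipid- and drug-binding proteins of plasma, rose as well, by unequal amounts. Orm2 had 10.95, 11.22 and 11.56 in formulation livers, against 8.08, 9.09, 7.62, 8.13 and 7.92 in untreated livers. All 6 formulation livers were above all untreated livers, untreated replicate 2 came nearest to them, and the rise of 3.06 ± 0.196 (8.33-fold) had the smallest limma adjusted p of the comparison, 8.76e-10. Orm3 had 7.52, 8.0 and 8.46 in formulation livers, against 6.24, 7.53, 6.47, 5.74 and 6.89 in untreated livers. Here untreated replicate 2 reached the lowest formulation liver, 5 of 6 formulation livers lay above every untreated one, and the rise was 1.47 ± 0.267 (2.77-fold, limma adjusted p = 0.0307). Orm1 had 11.92, 12.38 and 12.52 in formulation livers, against 11.52, 11.70, 11.45, 11.51 and 11.33 in untreated livers. The groups did not overlap and Orm1 rose by 0.82 ± 0.0986 (1.76-fold, limma adjusted p = 9.52e-05). The orosomucoid genes are related copies, so their probes may read signal of one another as well, and the part of this was not tested.

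Haptoglobin and serum amyloid P component completed the acute-phase genes called. Hp, the scavenger of free hemoglobin, had 12.55, 12.83 and 13.10 in formulation livers, against 11.99, 12.21, 12.14, 12.19 and 12.29 in untreated livers. It rose by 0.66 ± 0.107 (1.58-fold, limma adjusted p = 0.00821) and the groups did not overlap. Apcs, serum amyloid P component, had 11.27, 11.36 and 11.46 in formulation livers, against 10.67, 10.78, 10.67, 10.40 and 11.09 in untreated livers. The formulation livers lay close together above all untreated livers, and Apcs rose by 0.64 ± 0.123 (1.56-fold, limma adjusted p = 0.0424). Saa1, Saa2, Saa3, Orm1 and Orm2 kept their calls whichever of the 11 arrays was left out, and Hp did so except without untreated replicate 1. Orm3 remained called in 4 of those 11 fits, without formulation replicates 1 or 5 or untreated replicates 2 or 5, and Apcs in 1, without untreated replicate 5.

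**Figure D2:**
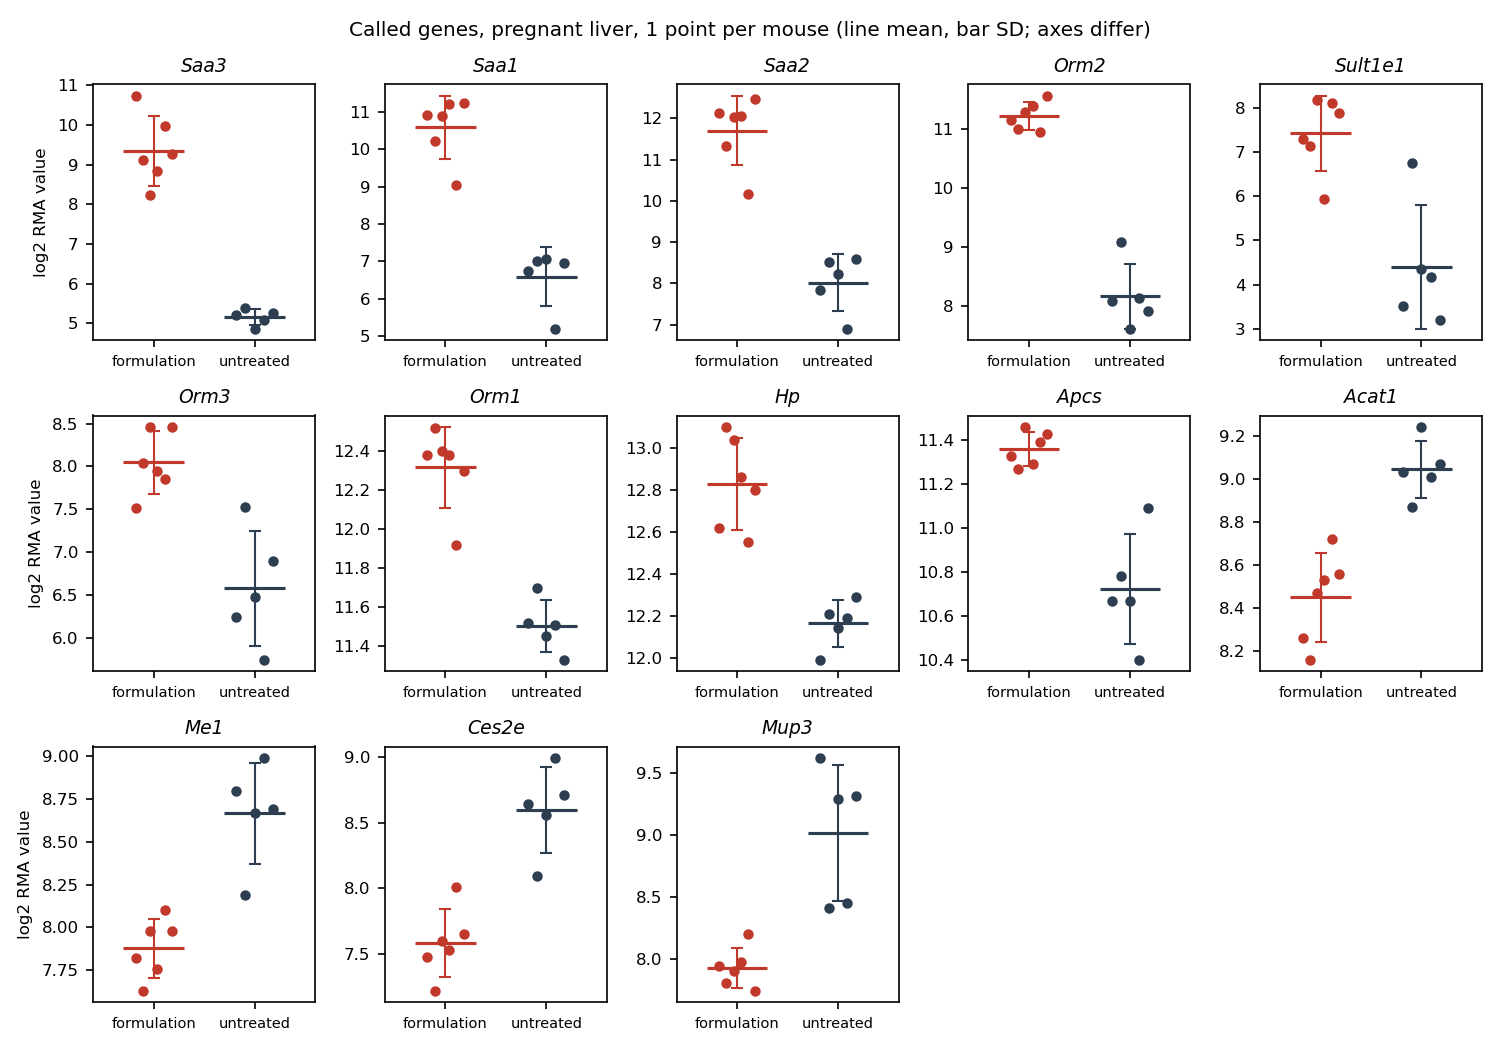
Levels (log2 intensity, y axis) of the 13 genes called, with formulation arrays left of untreated arrays in each panel. Points are arrays, lines group means and bars SD, and the groups do not overlap for 11 of the 13 genes, which were called on these same arrays.

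Over the whole acute-phase list, 31 of 35 genes were measured, 8 were higher and 0 lower at an adjusted p under 0.05. At an unadjusted p under 0.05, 17 were higher and 0 lower, against 5.44% of all probe sets higher and 6.9% lower. The groups did not overlap for 10 members, all higher in formulation livers, against 0.88% of all probe sets that were higher without overlap. The median member differed by 0.39, against 0.00 over all probe sets. The mean level of the list per array was 10.65 to 11.10 in formulation livers and 9.74 to 10.13 in untreated livers.

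Several acute-phase genes were higher in all or most formulation livers without passing the adjusted threshold. Hpx, the heme-binding hemopexin, had 13.15, 13.26 and 13.34 in formulation livers, against 12.78, 12.84, 12.88, 13.08 and 12.87 in untreated livers. These values did not overlap, and the difference was 0.36 ± 0.0754 (limma adjusted p = 0.0751). Lcn2, lipocalin 2, which binds bacterial iron carriers and is also a product of neutrophils, had 10.05, 11.23 and 11.48 in formulation livers, against 9.09, 9.74, 8.79, 8.85 and 9.34 in untreated livers. It too had no overlap, with a difference of 1.84 ± 0.398 (3.57-fold, limma adjusted p = 0.0871). Of the inter-alpha-trypsin inhibitor heavy chains, named with the next genes of this paragraph after their values were seen, Itih3 differed by 0.39 ± 0.0837 (limma adjusted p = 0.0871) and Itih4 by 0.26 ± 0.0768 (0.245). Further members were higher on average, with groups that overlapped, and were not called: A2m, alpha-2-macroglobulin, at 1.29 ± 0.536 (limma adjusted p = 0.352), Saa4, the serum amyloid A form made constitutively, at 0.88 ± 0.407 (0.389), the metalloreductase Steap4 at 0.76 ± 0.505 (0.543), Lrg1, a leucine-rich plasma glycoprotein, at 0.72 ± 0.241 (0.287) and Serpina3n, a serine protease inhibitor, at 0.54 ± 0.171 (0.26). Some members lay close to 0: the fibrinogen chain Fgb by 0.11 ± 0.0842, the pentraxin Crp by 0.14 ± 0.19, albumin by 0.05 ± 0.0572, transthyretin (Ttr) by -0.14 ± 0.107 and the iron hormone hepcidin (Hamp) by -0.08 ± 0.534. Hamp ranged from 8.06 to 11.18 within the formulation group, so its difference had a wide error.

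**Figure D3:**
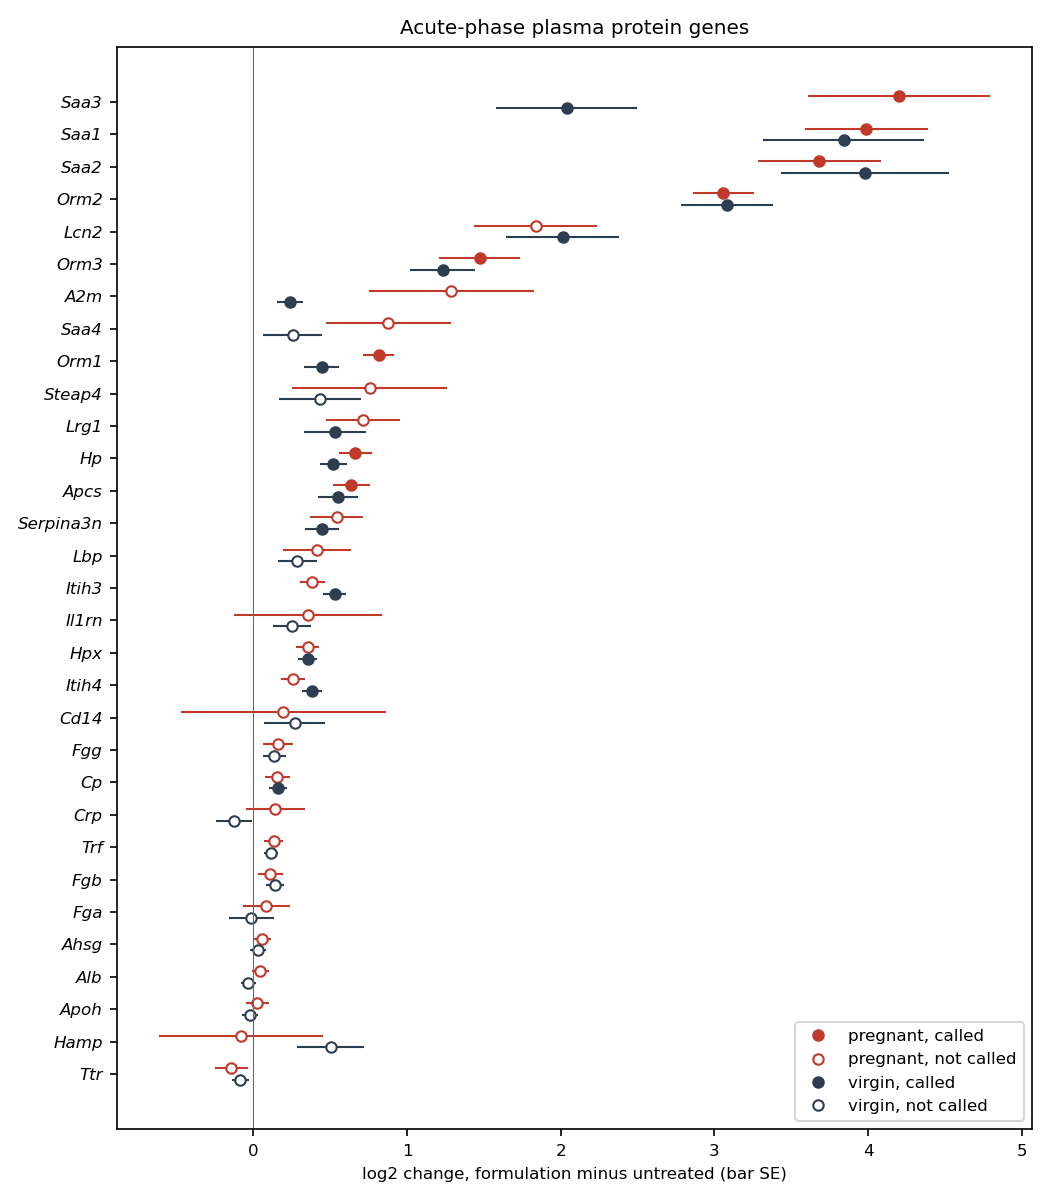
Differences (log2, x axis, with SE bars) of the 31 measured acute-phase genes for formulation minus untreated, pregnant above virgin in each row. Filled points are called at an adjusted p under 0.05: 8 in pregnant and 16 in virgin mice, all higher. Of all probe sets, 0.0384% were called higher in pregnant and 11.5% in virgin mice.

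Promoter windows of the called genes were read from RefSeq (assembly GRCm38.p6), as 300 bases around the start of each gene, and 10 of the 13 genes had one. Windows of Orm2, Orm3 and Apcs are shown because they hold letters of motifs of factors known to act on acute-phase genes. Capitals in Orm2 and Orm3 mark the AP-1 motif (TGANTCA), in Orm3 also the glucocorticoid element (ACANNNTGT), and in Apcs the STAT motif (TTCNNNGAA), all searched on both strands.
Orm2, chr4:63362199-63362498 (+): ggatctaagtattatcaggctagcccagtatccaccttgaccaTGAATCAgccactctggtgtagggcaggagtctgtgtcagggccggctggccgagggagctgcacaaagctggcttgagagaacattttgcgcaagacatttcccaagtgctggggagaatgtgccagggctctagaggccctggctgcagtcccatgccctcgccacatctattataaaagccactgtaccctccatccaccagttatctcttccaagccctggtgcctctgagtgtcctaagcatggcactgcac
Orm3, chr4:63355908-63356207 (+): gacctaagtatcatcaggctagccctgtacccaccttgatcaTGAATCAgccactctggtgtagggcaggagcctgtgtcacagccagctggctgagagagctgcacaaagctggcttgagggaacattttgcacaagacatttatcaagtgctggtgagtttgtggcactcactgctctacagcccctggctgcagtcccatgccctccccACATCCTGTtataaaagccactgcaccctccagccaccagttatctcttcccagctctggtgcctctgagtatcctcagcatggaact
Apcs, chr1:172895005-172895304 (-): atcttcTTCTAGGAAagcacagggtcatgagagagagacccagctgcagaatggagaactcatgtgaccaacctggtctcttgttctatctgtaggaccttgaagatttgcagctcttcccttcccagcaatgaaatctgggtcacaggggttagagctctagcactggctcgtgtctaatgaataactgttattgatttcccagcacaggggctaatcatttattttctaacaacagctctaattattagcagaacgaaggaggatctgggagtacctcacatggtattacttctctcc
The AP-1 letters lay 207 bases before the start of Orm2 and 208 before that of Orm3, and a further match lay 6 bases before the start of Me1. The Orm3 glucocorticoid match lay 38 bases and the Apcs STAT match 244 bases before the start. The windows of Orm2 and Orm3 shared 263 of 300 bases in matching blocks, so their AP-1 matches are not separate occurrences. Over all 32851 windows, AP-1 letters were in 7.81%, STAT letters in 8.3% and glucocorticoid letters in 6.85%. A loose form of the metal response core (TGCNCNC) was in 51.0%. It takes any base after TGC, where the core itself has A or G (TGCRCNC). The loose form was in 6 of the 10 genes. Of its matches, read on either strand, only TGCACCC in Orm3 has A or G after TGC. The share of all windows with the stricter letters was not counted. The heat shock motif (GAANNTTC) was in 1 of the 10 genes, Saa3, against 7.86% of all windows. The letters of the E-box (CACGTG), D-box (TTANGTAA), CRE (TGACGTCA) motifs, and those of the NF-kB motif, were in none of the 10. A match is a description of letters, and its absence says only that those letters are not in this window.

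Sult1e1, which adds sulfate to estrogens and so inactivates them, was the other gene that rose. It had 5.94, 7.59 and 8.18 in formulation livers, against 3.51, 6.75, 4.36, 4.18 and 3.20 in untreated livers. Untreated replicate 2 lay inside the formulation range and the other untreated livers lay below it. The difference was 3.02 ± 0.538 (8.12-fold, limma adjusted p = 0.0285), and the call remained in 2 of 11 fits that left out an array, without formulation replicate 4 or untreated replicate 2. Of the other 21 measured genes of the female-biased liver list, 0 were called. With Sult1e1, 2 members were higher and 5 lower at an unadjusted p under 0.05, against 5.44% and 6.9% of all probe sets. The median of the list was -0.00. With the interquartile range in the model 0 members were lower at that threshold.

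The genes that fell comprised a secreted urinary protein and enzymes of lipid and ketone metabolism. Mup3, a major urinary protein with higher levels in male than in female mouse liver, had 7.74, 7.92 and 8.20 in formulation livers, against 9.62, 8.41, 9.29, 8.45 and 9.31 in untreated livers. The groups did not overlap, untreated replicates 2 and 4 lay nearest the formulation livers, and Mup3 fell by 1.09 ± 0.207 on the log2 scale (2.13-fold lower, limma adjusted p = 0.0399). Ces2e, a carboxylesterase, had 7.22, 7.57 and 8.01 in formulation livers, against 8.64, 8.09, 8.56, 8.99 and 8.71 in untreated livers. It fell by 1.02 ± 0.191 (2.03-fold lower, limma adjusted p = 0.0363), with untreated replicate 2 just above the highest formulation liver.

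Me1, cytosolic malic enzyme, which supplies NADPH for fatty acid synthesis, had 7.63, 7.90 and 8.10 in formulation livers, against 8.80, 8.19, 8.67, 8.99 and 8.69 in untreated livers. The groups did not overlap and Me1 fell by 0.79 ± 0.144 (1.73-fold lower, limma adjusted p = 0.0307); a further probe set of the gene fell by 0.88 ± 0.161 (limma adjusted p = 0.0307). Acat1, a mitochondrial thiolase of ketone body and isoleucine metabolism, had 8.16, 8.50 and 8.72 in formulation livers, against 9.03, 8.87, 9.24, 9.01 and 9.07 in untreated livers. All formulation livers lay below all untreated livers and Acat1 fell by 0.60 ± 0.116 (1.51-fold lower, limma adjusted p = 0.0457). The calls of Ces2e, Me1 and Acat1 remained in 2 of 11 fits that left out an array, without formulation replicate 5 or untreated replicate 2, and that of Mup3 in 3, without formulation replicate 5 or untreated replicates 2 or 4.

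Probe sets next in line by p were not called. Rny3, a small Y RNA, was 0.59 ± 0.122 higher without overlap (limma adjusted p = 0.0726). For Ptpn3, a tyrosine phosphatase with 12 probe sets, the probe set with the smallest p was 0.43 ± 0.0859 higher (limma adjusted p = 0.0614), while the probe set that stands for the gene elsewhere differed by 0.07 ± 0.112, so its probe sets disagree. Lower without overlap were Rbl1, a relative of the retinoblastoma protein, at -0.49 ± 0.0976 (limma adjusted p = 0.0614), Fgd6 at -0.57 ± 0.116 (0.0726), Igfbp7 at -0.42 ± 0.0896 (0.0827) and Sdha, a subunit of succinate dehydrogenase, at -0.41 ± 0.0927 (0.114). Differences of -0.43 to -0.45 were measured for Pja2, Snx6 and Sri, also without overlap. Cyp2a22, a cytochrome P450, was at -0.96 ± 0.211 (limma adjusted p = 0.0904) with 5 of 6 formulation livers below all untreated livers.

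The metallothionein genes Mt1 and Mt2, whose products bind zinc, did not pass the adjusted threshold in this comparison, in which no zinc oxide was applied. Mt1 had 12.01, 12.28 and 12.43 in formulation livers, against 11.38, 12.17, 11.89, 11.30 and 11.88 in untreated livers. The ranges overlapped at untreated replicate 2, and the difference of 0.51 ± 0.125 was not called (limma adjusted p = 0.171). Mt2 had 11.79, 12.15 and 12.23 in formulation livers, against 11, 11.92, 11.90, 11.01 and 10.69 in untreated livers. Its difference was 0.76 ± 0.181 (limma adjusted p = 0.16), with 4 of 6 formulation livers above all untreated livers. Without untreated replicate 2, both Mt1 and Mt2 passed the threshold.

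Of the zinc transporters, the importer Slc39a4 had 5.79, 6.09 and 6.29 in formulation livers, against 6.85, 6.27, 6.51, 7.0 and 6.27 in untreated livers, a difference of -0.49 ± 0.123 (limma adjusted p = 0.175) with overlap at a single formulation liver. The exporter Slc30a1 differed by 0.14 ± 0.135, Slc30a10 by -0.47 ± 0.251 and the inflammation-responsive importer Slc39a14 by 0.43 ± 0.215, none of them called. Over 23 measured zinc-handling genes 0 were called and the median was -0.07. At an unadjusted p under 0.05, 2 were higher and 4 lower, against 5.44% and 6.9% of all probe sets. The 4 lower became 1 with the interquartile range in the model. In virgin livers the same list had 4 members called higher and 7 called lower, where 26.5% of all probe sets were called.

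Genes of fatty acid oxidation were mostly lower without a single call. Of 38 measured targets of the fatty acid receptor PPARA and oxidation enzymes, 0 were higher and 15 lower at an unadjusted p under 0.05, against 6.9% of all probe sets lower. The median was -0.22, against 0.00 over all probe sets, and 6 members were lower without overlap, against 1.48% of all probe sets. Plin2, a lipid droplet coat protein, had 8.08, 8.31 and 8.62 in formulation livers, against 9.24, 8.69, 9.30, 9.63 and 8.71 in untreated livers. These did not overlap and differed by -0.78 ± 0.195 (limma adjusted p = 0.175). The acyl-CoA thioesterases Acot2 and Acot1 differed by -0.50 ± 0.12 (0.162) and -0.68 ± 0.172 (0.175). Cyp4a14, a target that rises strongly when PPARA is active, had 2.57 to 3.29 in formulation livers and 2.70 to 3.24 in untreated livers. It differed by -0.23 ± 0.126. Both ranges lay below the lowest median of a pregnant array, 3.98, so this gene says little about a fall. When the interquartile range of each array was added to the model, 5 members in place of 15 had an unadjusted p under 0.05; the part of array width in this result was not tested further.

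Most mitochondrial and redox genes were lower by small amounts, with 23 of 29 respiratory chain genes and 24 of 27 antioxidant and glutathione genes below 0 and 0 called. Over all probe sets 5.44% were higher and 6.9% lower at an unadjusted p under 0.05. The respiratory chain list of 29 measured genes had 0 higher and 8 lower at an unadjusted p under 0.05 (2 with the interquartile range in the model), a median of -0.11 and 6 members lower without overlap, against 1.48% of all probe sets. Its members of smallest p were Sdha, Ndufs1 of complex I (-0.40 ± 0.101, limma adjusted p = 0.175) and Uqcrc2 of complex III (-0.31 ± 0.0978, 0.266). Among 27 antioxidant and glutathione genes, 0 were higher and 6 lower at an unadjusted p under 0.05 (2 with the interquartile range in the model) with a median of -0.15, and Gclc, the rate-limiting enzyme of glutathione synthesis, had 7.85, 8.39 and 8.76 in formulation livers, against 9.42, 8.53, 9.64, 9.25 and 8.48 in untreated livers. The untreated livers split for Gclc, with replicates 2 and 5 inside the formulation range, and the difference was -0.71 ± 0.24 (limma adjusted p = 0.288). Pgd, of the pentose phosphate pathway, and Nfe2l2, the antioxidant transcription factor NRF2, differed by -0.42 ± 0.103 (0.175) and -0.37 ± 0.131 (0.313).

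The fatty acid synthesis list, with 24 measured genes, had 1 called lower, Me1, and at an unadjusted p under 0.05 1 higher and 6 lower, with a median of -0.26. Over all probe sets 5.44% were higher and 6.9% lower at that threshold. Heat shock chaperones numbered 18, of which 0 were higher and 5 lower at an unadjusted p under 0.05, with a median of -0.14. After further quantile normalization 2 of them were lower at that threshold. The mitochondrial chaperonin Hspd1 differed by -0.37 ± 0.0979 (limma adjusted p = 0.206), and the HSP90 cochaperones Fkbp4 and Ahsa1 by -0.46 ± 0.13 (0.231) and -0.34 ± 0.109 (0.269). In the list of gluconeogenesis and glycogen, Ppp1r3c, which targets a phosphatase to glycogen, had 5.17, 5.31 and 5.89 in formulation livers, against 7.47, 6.66, 6.83, 6.87 and 6.03 in untreated livers. The groups did not overlap and differed by -1.35 ± 0.378 (limma adjusted p = 0.227), while Pck1, the rate-limiting enzyme of gluconeogenesis, differed by 0.57 ± 0.254 the other way.

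Markers of other liver cells gave 0 calls in the endothelial, neutrophil, stellate and Kupffer lists, and no list was tested as a whole. In bulk tissue fewer cells of a type and less RNA per cell cannot be told apart. Endothelial markers numbered 22, with a median of -0.33, and none was called. At an unadjusted p under 0.05, 0 were higher and 12 lower, against 5.44% and 6.9% of all probe sets. Their mean level per array was 5.34 to 5.83 in formulation livers and 5.76 to 6.09 in untreated livers. Oit3, a liver endothelial protein, had 5.32, 5.78 and 6.10 in formulation livers, against 6.32, 6.18, 6.50, 6.41 and 6.17 in untreated livers. It did not overlap and differed by -0.57 ± 0.134 (limma adjusted p = 0.14), as did Tek, the angiopoietin receptor, at -0.50 ± 0.155 (0.255). Cdh5, the cadherin of endothelial junctions, differed by -0.34 ± 0.105 (0.259). Named after their values were seen, the vascular growth factor receptor Kdr and the coreceptor Eng differed by -0.77 ± 0.242 (0.263) and -0.47 ± 0.159 (0.287) without overlap. Leaving out 1 array gave 8 (without untreated replicate 1) to 17 (without formulation replicate 4) endothelial markers lower.

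Neutrophil markers had a median of 0.32. Of 19, 6 were higher and 0 lower at an unadjusted p under 0.05, against 5.44% and 6.9% of all probe sets, and none was called. The count of 6 was 3 with the interquartile range in the model and 10 with only the formulation and untreated arrays fitted. Their mean level per array, 4.95 to 5.37 in formulation livers and 4.65 to 4.90 in untreated livers, did not overlap. Besides Lcn2, Retnlg had 4.23, 4.41 and 4.79 in formulation livers, against 3.60, 3.99, 3.92, 3.56 and 3.54 in untreated livers. It was higher in all 6 formulation livers and differed by 0.72 ± 0.205 (limma adjusted p = 0.231). The chemokine receptor Cxcr2 differed by 0.47 ± 0.168 (0.314), and the calgranulins S100a8 and S100a9, named after their values were seen, by 0.97 ± 0.39 (0.343) and 0.78 ± 0.345 (0.376) without overlap. The granule genes Elane and Mpo differed by -0.17 and -0.27, and the surface marker Ly6g by 0.27, at mean levels of 2.9 to 4.9 in formulation livers. Stellate cell and fibroblast markers numbered 19, with 0 higher and 5 lower and a median of -0.15. Dcn, decorin, was lower without overlap at -0.39 ± 0.12 (limma adjusted p = 0.252), and Pdgfrb and Tagln differed by -0.33 ± 0.13 and -0.34 ± 0.141. Kupffer cell and macrophage markers had 0 of 19 higher and 2 lower, a median of -0.21 and 14 members below 0. Their mean level per array was 5.53 to 6.02 in formulation livers and 5.70 to 5.99 in untreated livers. The part of any of these cells in the acute-phase and metabolic differences was not tested.

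**Figure D4:**
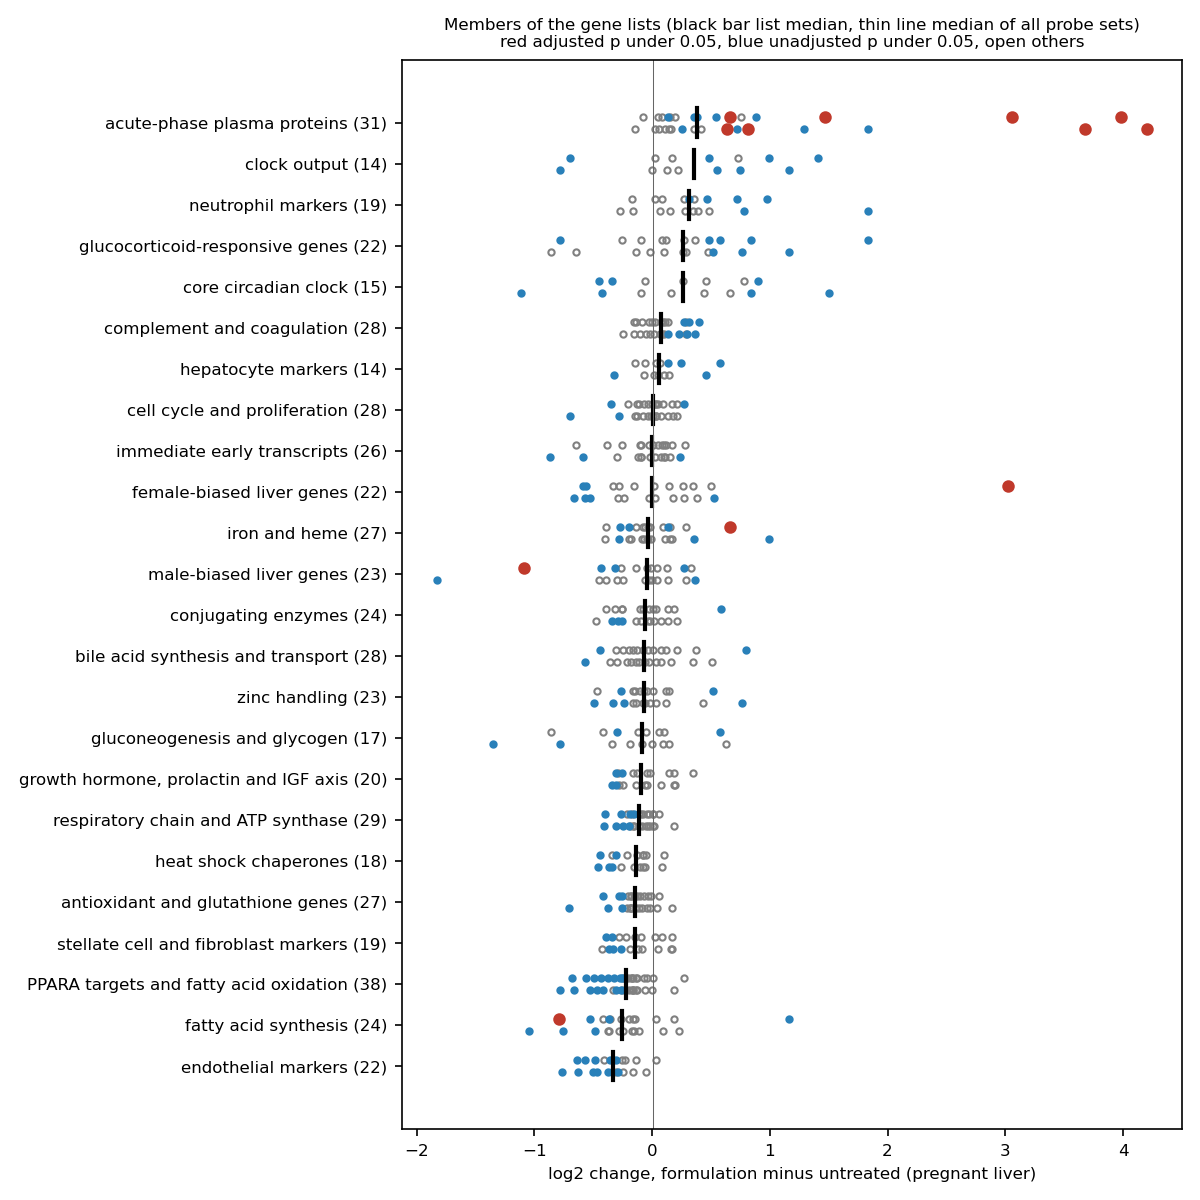
Differences (log2, x axis) of the measured members of 24 gene lists, 1 row a list, for formulation minus untreated pregnant livers. Red points are called, blue points have an unadjusted p under 0.05, open points neither, and the black bar is the median: acute-phase genes lie to the right, fatty acid oxidation and endothelial genes to the left.

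Clock genes varied widely within the untreated group. Dbp, a transcription factor that the clock drives, had 7.09, 7.73 and 8.21 in formulation livers, against 5.32, 7.24, 4.98, 5.59 and 8.15 in untreated livers. Untreated replicates 2 and 5 lay inside the formulation range and the other untreated livers well below it, and the difference of 1.41 ± 0.541 was not called (limma adjusted p = 0.325). Arntl, the positive factor BMAL1, had 4.29, 4.74 and 5.31 in formulation livers, against 6.57, 5.27, 6.52, 6.52 and 4.42 in untreated livers, with the same 2 untreated livers inside the formulation range. It differed by -1.11 ± 0.425 (limma adjusted p = 0.322). Ciart and Tef, which also follow the clock, differed by 1.5 ± 0.623 and 0.75 ± 0.289, and the repressors Per1, Per2 and Per3 by 0.84 ± 0.302, 0.44 ± 0.217 and 0.67 ± 0.333. Nr1d1, the repressor REV-ERB alpha, differed by 0.78 ± 0.441, its opponent Rora by -0.34 ± 0.0936 and Clock by -0.45 ± 0.159.

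Over 15 measured core clock genes 0 were called and the median was 0.26. At an unadjusted p under 0.05, 3 were higher and 4 lower, against 5.44% and 6.9% of all probe sets. Over 14 clock output genes 6 were higher and 2 lower with a median of 0.35. The members lower were Pdk4, a brake on pyruvate oxidation (-0.79 ± 0.197, limma adjusted p = 0.175), and Nfil3 (-0.70 ± 0.262, 0.321), and among those higher was the glucocorticoid target Tsc22d3 (0.48 ± 0.183, 0.322). With the interquartile range in the model the core clock list had 0 higher and 1 lower, and the clock output list likewise 0 higher and 1 lower. The count of core clock genes higher was 1 without untreated replicate 1 and 7 without untreated replicate 5. Glucocorticoid-responsive genes numbered 22, with 7 higher and 1 lower, a median of 0.27 and 0 called. The time of day of each harvest is not in the labels, and its part in these values was not tested.

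Smaller groups were counted in the same way, each with 0 called unless said. Over all probe sets 5.44% were higher and 6.9% lower at an unadjusted p under 0.05. The complement and coagulation list had 7 of 28 members higher and 0 lower at an unadjusted p under 0.05, with a median of 0.08. Its examples were Serping1, the C1 inhibitor, at 0.30 ± 0.0814 (limma adjusted p = 0.217), C4b at 0.27 ± 0.0915 and C8b at 0.36 ± 0.127. In the growth hormone, prolactin and IGF axis 0 of 20 were higher and 4 lower, among them Igfbp3 (-0.34 ± 0.11), Jak2 (-0.30 ± 0.127) and Stat5b (-0.31 ± 0.132). The 4 lower became 1 after further quantile normalization and 1 with the interquartile range in the model. The male-biased liver genes had 23 measured members, 1 called lower (Mup3), 2 higher and 4 lower at an unadjusted p under 0.05, and a median of -0.05. Slco1a1, a male-biased organic anion transporter, had 3.37, 4.44 and 5.28 in formulation livers, against 7.45, 5.98, 6.06, 5.28 and 6.33 in untreated livers. The groups touched at 5.28 on this rounding without overlapping, and the difference was -1.83 ± 0.556 (3.54-fold lower, limma adjusted p = 0.252).

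In the bile acid list of 28 genes 1 was higher, the hydroxylase Cyp39a1 (0.80 ± 0.281), and 2 were lower, the phospholipid exporter Abcb4 (-0.44 ± 0.16) and the repressor Nr0b2 (-0.57 ± 0.263). These counts lie near the 5.44% of all probe sets higher and 6.9% lower at an unadjusted p under 0.05. Of 24 conjugating enzymes Sult1d1 was higher (0.58 ± 0.258), and Gsta4 (-0.34 ± 0.137) and Gstm4 (-0.29 ± 0.129) were among the 3 lower. With the interquartile range in the model the conjugating list had 0 higher and 0 lower, and after further quantile normalization 2 higher and 0 lower. The cell cycle list of 28 had 1 higher and 3 lower, the examples being cyclin D1, Ccnd1 (-0.70 ± 0.247), and the replication helicase subunits Mcm6 (-0.35 ± 0.136) and Mcm3 (-0.29 ± 0.125). Among 14 hepatocyte markers 4 were higher and 1 lower, with Serpina1c, an antitrypsin gene, at 0.24 ± 0.0821 and Tdo2, tryptophan dioxygenase, at 0.46 ± 0.2. The iron and heme list of 27 had Hp called higher, 4 higher and 3 lower at an unadjusted p under 0.05. Another 13 lists had under 3 members at an unadjusted p under 0.05 and 0 called, among them cytokine signalling, the unfolded protein response and interferon-stimulated genes.

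The same contrast in virgin mice, with other animals and other controls, gave 6203 called probe sets (26.5%), or 179 with the interquartile range of each array in the model. In virgin livers the groups did not overlap for 9.5% of all probe sets. In the model without that covariate, 12 of the 13 genes called in pregnant mice were called there in the same direction. The other was Sult1e1, at 1.05 ± 0.494 in virgin livers (limma adjusted p = 0.113). Orm2 differed by 3.06 in pregnant and 3.08 in virgin livers, Saa1 by 3.99 and 3.84, and Saa2 by 3.68 and 3.98. Saa3 differed by 4.20 ± 0.594 in pregnant and 2.04 ± 0.459 in virgin livers, and the test of that difference gave 2.16 with a limma adjusted p of 0.308. Mup3 differed by -1.09 in pregnant and -2.0 in virgin livers (limma adjusted p of the difference 0.377). Of the 13 genes, 0 had a response that differed between the experiments at an adjusted p under 0.05, where 0.145% of all probe sets did. Across 5234 genes called in virgin mice, 12 were called in pregnant mice. The 2 experiments differed in their spread and in the number of mice. A call in one and not in the other does not show a difference, and pregnancy and experiment cannot be told apart.

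A difference in response was called for 34 probe sets, 18 with a more positive response in pregnant mice (0.0769%) and 16 with a more negative one (0.0683%). With the interquartile range in the model 12 were called, and Jun, Btg2, Fos, Atf3, Zfp36, Nr4a1, Cyp2c67 and Ugt2b38 kept their calls. Immediate early genes took 9 of the 16. These genes, among 26 measured, were called in virgin mice for 19 members, all higher, against 11.5% of all probe sets called higher there. In pregnant mice 0 were called, against 0.0384% of all probe sets called higher and 0.0214% lower. There 1 was higher and 2 lower at an unadjusted p under 0.05 and the median was -0.00, against 0.54 in virgin mice.

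Jun, a subunit of the AP-1 factor, had 5.12, 5.55 and 5.79 in formulation livers of pregnant mice, against 6.31, 6.17, 5.56, 5.11 and 6.25 in untreated livers. Every formulation liver lay within the untreated range, and the difference was -0.39 ± 0.286 (limma adjusted p = 0.589). In virgin mice, with 6 livers in each group, Jun had a lowest, median and highest level of 8.44, 8.92 and 9.27 in formulation livers, against 5.75, 6.07 and 6.70 in untreated livers. There the groups were far apart, Jun rose by 2.79 ± 0.292, and the response of pregnant minus virgin mice was -3.18 ± 0.433 (limma adjusted p = 7.46e-05). Btg2, an antiproliferative factor, had 5.00, 5.67 and 5.89 in formulation livers of pregnant mice, against 6.02, 5.86, 5.03, 5.08 and 6.39 in untreated livers, with overlap and a difference of -0.09 ± 0.307. In virgin mice it had 7.13, 7.98 and 8.47 in formulation livers, against 4.96, 5.21 and 5.67 in untreated livers, and the difference in response was -2.67 ± 0.416 (limma adjusted p = 0.000851).

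Atf3, a stress-induced factor, differed by 0.01 ± 0.293 in pregnant and 2.36 ± 0.244 in virgin livers, a difference in response of -2.35 ± 0.399 (limma adjusted p = 0.00274). Fos, the partner of Jun in AP-1, differed by -0.02 ± 0.161 in pregnant and 2.14 ± 0.308 in virgin livers (difference in response -2.17 ± 0.377, limma adjusted p = 0.00334). For Dusp1, a phosphatase of MAP kinases, the values were -0.65 ± 0.47 and 1.94 ± 0.302 (difference -2.59 ± 0.577, limma adjusted p = 0.039). For Egr1 they were -0.87 ± 0.328 and 1.66 ± 0.413 (difference -2.52 ± 0.565, limma adjusted p = 0.0404). Egr1 had 4.96, 5.17 and 5.64 in formulation livers of pregnant mice, against 7.29, 4.83, 6.41, 5.55 and 6.23 in untreated livers, so its spread was mainly within the untreated group. The called difference in response remained in 4 of 11 fits that left out a pregnant array for Dusp1 (without formulation replicates 2 or 3 or untreated replicates 3 or 4) and in 2 for Egr1 (without untreated replicates 2 or 4). It was not called for either with an intensity trend and robust variances (limma adjusted p = 0.0969 for Dusp1 and 0.1 for Egr1). The remaining members, named after their values were seen, were Zfp36, which destabilises cytokine transcripts (-0.30 in pregnant and 1.61 in virgin livers, limma adjusted p of the difference 0.00223), Nr4a1 (0.08 and 1.5, 0.00529) and Ier2 (-0.09 and 1.44, 0.0181), which was not called without untreated replicate 1. Egr3, at 0.24 ± 0.103, and Dusp6, at -0.59 ± 0.233, had the smallest p after Egr1 within the pregnant comparison and were not called. Leaving out 1 pregnant array at a time left 6 (without untreated replicate 1) to 9 immediate early genes with a called difference in response.

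**Figure D5:**
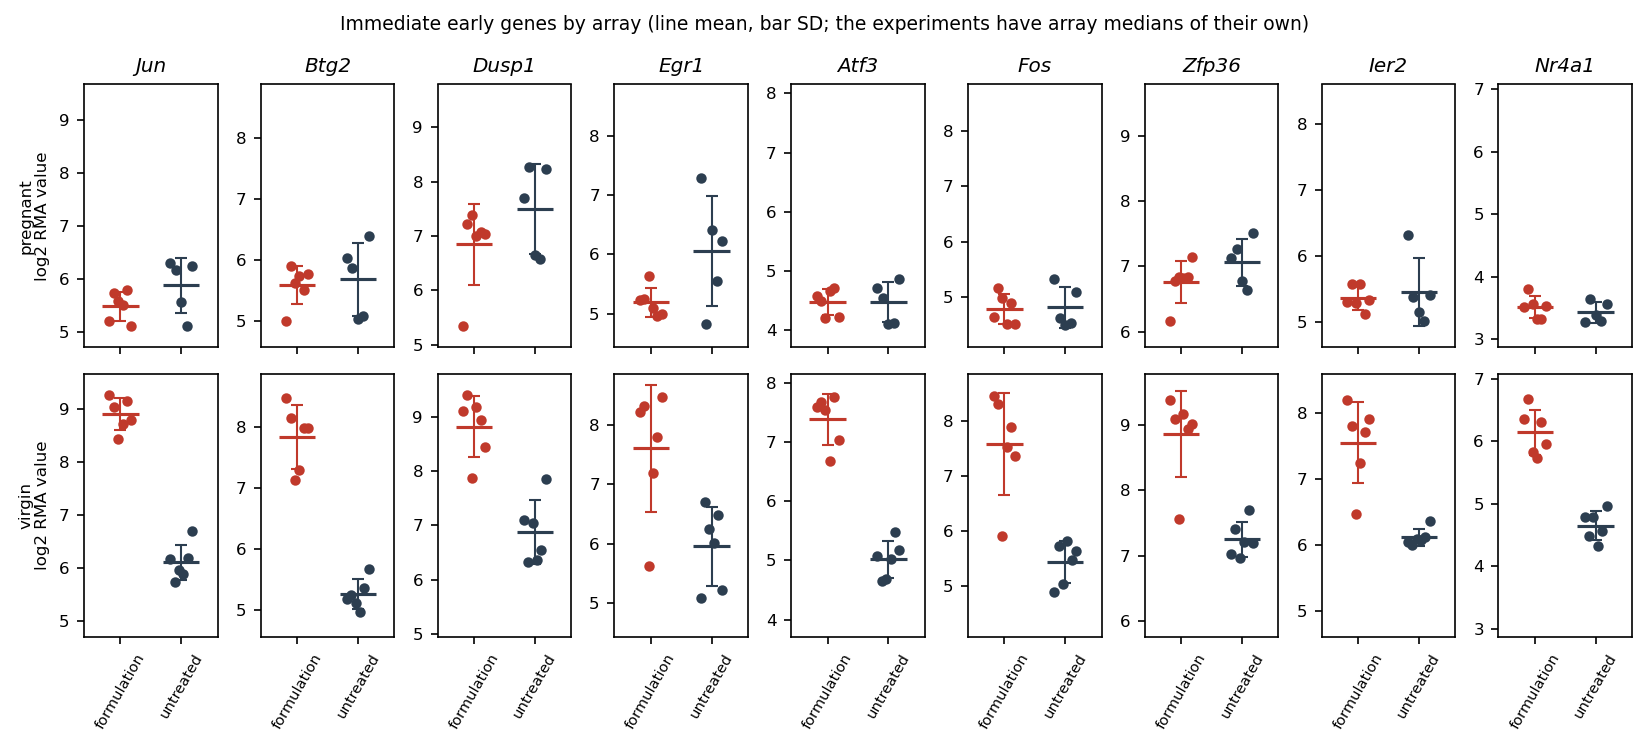
Levels (log2 intensity, y axis) of 9 immediate early genes by array, with pregnant mice in the top row and virgin mice in the bottom row and formulation left of untreated in each panel. In pregnant mice the groups overlap for all 9, and in virgin mice formulation arrays are higher on average for all 9.

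Mt1 was also among the more negative responses in pregnant mice, at 0.51 ± 0.125 in pregnant and 1.71 ± 0.195 in virgin livers (difference -1.20 ± 0.247, limma adjusted p = 0.0205), a call that ended without untreated replicate 2. For Mt2 the values were 0.76 and 1.97, and the difference of -1.21 ± 0.357 was not called (limma adjusted p = 0.188). The 5 genes with the largest positive differences in response had fallen in virgin mice and were not called in pregnant mice. Slc10a2, a bile acid transporter, differed by 0.37 ± 0.23 in pregnant and -1.36 ± 0.242 in virgin livers (difference 1.73 ± 0.353, limma adjusted p = 0.0187). Keg1 differed by -0.06 and -1.55 (difference 1.48 ± 0.327, 0.0376), Hsd3b2, a steroid dehydrogenase, by -0.45 and -1.91 (1.46 ± 0.307, 0.0241), Cyp2c67, a cytochrome P450, by -0.01 and -1.44 (1.43 ± 0.258, 0.00529) and Vamp7, a vesicle fusion protein, by 0.12 and -0.99 (1.10 ± 0.219, 0.0181). With 1 pregnant array left out, Cyp2c67 and Vamp7 were called in all 11 fits, Slc10a2 in 10 (all but without untreated replicate 4), Hsd3b2 in 6 (not without formulation replicates 1 or 5 or untreated replicates 1, 2 or 5) and Keg1 in 3 (without formulation replicate 2 or untreated replicates 2 or 5).

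Of the male-biased liver genes, 4 of 23 had a called difference in response, all more positive in pregnant mice, against 0.0769% of all probe sets: Keg1, Hsd3b2, C8b and Ugt2b38. C8b differed by 0.36 in pregnant and -0.40 in virgin livers (difference 0.77 ± 0.163, limma adjusted p = 0.0285). Ugt2b38, named after its values were seen, differed by 0.13 and -0.54 (0.67 ± 0.135, 0.0181). In virgin mice 16 members of this list were called lower and 0 higher, against 15% of all probe sets called lower and 11.5% higher, with a median of -0.70, against -0.05 in pregnant mice. Serpina1c (0.50 ± 0.112, limma adjusted p = 0.039) and the zinc transporter Slc39a11 (0.43 ± 0.0913, 0.0241), named after its values were seen, had more positive responses in pregnant mice as well. Slco1a1 differed by -1.83 in pregnant and -4.02 in virgin livers, and that difference was not called (limma adjusted p = 0.215). With 1 pregnant array left out Ugt2b38 was called in all 11 fits, C8b in 8 (not without formulation replicate 3 or untreated replicates 1 or 3), Slc39a11 in 8 (not without formulation replicate 3 or untreated replicates 1 or 5) and Serpina1c in 3 (without formulation replicates 3 or 4 or untreated replicate 4).

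The arms with zinc oxide shared the 5 untreated livers with the formulation arm, so their differences are given side by side without a test between them. At an adjusted p under 0.05, 25 probe sets were called for micro ZnO (0.107%) and 5 for nano ZnO (0.0214%). Of the 13 genes called for the formulation, 10 were called for micro ZnO and 5 for nano ZnO. Saa1 differed from untreated by 3.99 with formulation, 4.46 with micro ZnO and 3.56 with nano ZnO. For Saa2 the values were 3.68, 3.99 and 3.20, for Saa3 4.20, 5.36 and 2.76, and for Orm2 3.06, 3.16 and 2.82, in the same order of arms. The call for Saa3 did not hold in the nano ZnO arm (limma adjusted p = 0.132). Sult1e1 differed by 3.02, 3.09 and 2.74, and Mup3 by -1.09, -1.40 and -1.20. For the calgranulin S100a8 the values were 0.97, 2.23 and 1.45, called for micro ZnO alone (limma adjusted p = 0.0192). Mt1 differed by 0.51, 0.52 and 0.50 and Mt2 by 0.76, 0.80 and 0.71, none of them called.

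The micro ZnO values rest in part on replicates 3 and 4, the arrays that stood apart on the first principal component. Saa3 was at 12.47 and 12.96 in these, against 8.45 to 9.43 in the other micro ZnO livers, and S100a8 at 8.62 and 8.40, against 6.65 to 7.24. In a fit without them, chosen after seeing the data, 7 probe sets were called for micro ZnO in place of 25, and 5 of the 13 formulation genes in place of 10 (Saa1, Saa2, Saa3, Orm1 and Orm2). Micro ZnO minus untreated was then 3.76 for Saa1, 3.22 for Saa2, 3.89 for Saa3 and 2.92 for Orm2. Sult1e1 (2.90, limma adjusted p = 0.184), Mup3 (-1.14, 0.0758) and S100a8 (1.62, 0.45) were no longer called, and Mt1 and Mt2 were at 0.42 and 0.60.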

How the data were processed

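Liver RNA of 46 mice was measured on Affymetrix whole-transcript arrays, from 1 ug of total RNA per the labels' protocols. Per the submitters' processing notes the deposited table holds log2 values from RMA, which subtracts background, normalizes arrays by quantiles and summarizes probes to probe sets, and the software version is not given in the sources used here. All 46 columns were used, and 0 columns of other samples were present. The table held 35512 probe sets: 21789 with 1 gene symbol, 1621 with several and 12102 with none, named from the platform annotation. The 23410 with a symbol (19938 genes) were tested, and Entrez identifiers of 21698 matched a GRCm38.p6 gene table, with 0 symbols changed. A gene is represented by its probe set of highest mean over the pregnant arrays.

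In R 4.3.3 with limma 3.58.1, the 4 arms of the pregnant experiment were fitted over 22 arrays, the virgin experiment likewise over 24, and all 46 arrays in a joint model for the difference in response. Tests were two-sided, with p-values adjusted by Benjamini-Hochberg across all 23410 tested probe sets. A call is an adjusted p under 0.05. Replicates are separate mice per the labels. No detection calls, scan dates or batches were available here, so unexpressed probe sets and any overlap of batch with arm could not be checked. The number of arrays limits the precision. On simulated data with independent noise limma found 85 of 100 genes changed 1.5-fold and 98 of 100 changed 2-fold, with 10 false calls. More genes were changed there than were called here, and the arrays had no group difference in width. These rates therefore do not carry over to the comparison, in which Lcn2 (3.57-fold) and Slco1a1 (3.54-fold lower) were not called.

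Genes are named by rule: the 12 largest rises and falls among the called, completed by smallest p, a fixed set of zinc, clock, stress and acute-phase genes, up to 6 called members of each described list or else the 3 of smallest p, and the 5 largest differences in response each way. Lists are described where they had a called member or at least 3 members at an unadjusted p under 0.05, by counts and medians without a test. The members and lists were chosen with earlier results of these data known. Alternatives were filters on dim or unnamed probe sets, variance trend, array weights, further normalization, the interquartile range as covariate, other sets of arrays, the replicate block and leaving out each array; leaving out micro ZnO replicates 3 and 4 in the micro ZnO contrast was added after the data were seen.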

Additional observations from a re-analysis of the deposited data

Results flagged for a closer look

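In 236 groups of levels, 1 array stood far from the others of its group 14 times, and chance alone gives about 1 in 20. For genes that were called, Saa1 was at 5.20 in untreated replicate 4, against 6.74 to 7.07 in the other untreated livers. Orm1 was at 11.92 in formulation replicate 5, against 12.30 to 12.52 in the other formulation livers. Formulation replicate 1 stood apart for 5 genes: Dusp1 at 5.35 (others 7.0 to 7.39), Zfp36 at 6.16 (6.78 to 7.15), Hamp at 8.06 (10.15 to 11.18), Egr3 at 5.97 (5.54 to 5.67) and Cyp4a14 at 3.29 (2.57 to 2.81). Other formulation livers stood apart for Tef, at 7.01 in replicate 3 (7.36 to 7.56), C8b, at 9.60 in replicate 3 (9.21 to 9.26), Sult1d1, at 9.38 in replicate 5 (8.49 to 8.80), and Tek, at 4.31 in replicate 6 (4.67 to 4.78). Untreated livers stood apart for Clock, at 6.26 in replicate 5 (6.82 to 7.0), Kdr, at 6.69 in replicate 5 (6.96 to 7.07), and Pck1, at 9.89 in replicate 1 (10.65 to 10.95).

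Pregnancy and experiment cannot be told apart in the test of the difference in response. Some genes were named for a large such difference or after their values were seen. By that test, the response to formulation differed between pregnant and virgin mice for 19 of the genes named. It was more negative in pregnant mice for Jun (-3.18), Btg2 (-2.67), Dusp1 (-2.59), Egr1 (-2.52), Atf3 (-2.35), Fos (-2.17), Zfp36 (-1.91), Ier2 (-1.53), Nr4a1 (-1.42) and Mt1 (-1.20). It was more positive for Slc10a2 (1.73), Keg1 (1.48), Hsd3b2 (1.46), Cyp2c67 (1.43), Vamp7 (1.10), C8b (0.77), Ugt2b38 (0.67), Serpina1c (0.50) and Slc39a11 (0.43). With the interquartile range of each array as covariate, the calls for Dusp1, Egr1, Ier2, Mt1, Slc10a2, Keg1, Hsd3b2, Vamp7, C8b, Serpina1c and Slc39a11 were lost.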

How the results depend on the processing

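For the pregnant comparison 14 probe sets were called. The count was 6 with all probe sets tested, 39 with array weights, 4 with the interquartile range as covariate, 53 with only the 2 groups fitted, 41 without micro ZnO replicates 3 and 4 and 32 at an adjusted p under 0.10; leaving out 1 array gave 5 to 19. The virgin count of 6203 was 3831 after further quantile normalization and 179 with the interquartile range as covariate. For micro ZnO, 25 called probe sets became 7 without its replicates 3 and 4, a fit chosen after seeing the data, and the 10 formulation genes called with it became 5. For the difference in response, 34 probe sets became 12 with that covariate, and 18 to 32 with 1 array left out. Acute-phase members called were 4 with the covariate and 5 to 8 with 1 array left out. Joint quantile normalization ended that call for C8b, Serpina1c, Keg1, Ugt2b38 and Slc39a11, and an intensity trend for Dusp1, Egr1 and Keg1. Leaving out 1 array gave 6 to 9 immediate early genes with a called difference in response.

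Replicate numbers are shared by the groups, and deviations of same-numbered arrays had correlations of 0.13, 0.113, 0.0241, 0.0493 and 0.158. Arrays of different numbers were not correlated, so these values do not decide whether the numbers mark pairs. The main fit did not take them as pairs. With the replicate block 8 probe sets were called in the pregnant comparison (Hp, Orm1, Orm2, Orm3, Saa1, Saa2, Saa3 and Sult1e1), 4806 in the virgin one and 11 for the difference in response. None of the 5 lower probe sets was called with the block, and the difference in response was then not called for Mt1, Dusp1, Egr1, Ier2, C8b, Serpina1c, Keg1, Hsd3b2, Vamp7, Ugt2b38 and Slc39a11 (adjusted p 0.0599 to 0.0993).

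Differences near 0 changed sign in some fits, and the cause was not tested. After further quantile normalization Atf3 was at -0.0282, Keg1 at 0.0214, Cyp2c67 at 0.0491 and Alb at -0.0386. With the interquartile range as covariate Atf3 was at -0.304, Keg1 at 0.121, Nr4a1 at -0.139 and Hamp at 0.131, and Hamp was at 0.069 with array weights. With 1 array left out Fos ran from -0.107 to 0.104, Atf3 from -0.0806 to 0.109, Btg2 from -0.255 to 0.0863, Keg1 from -0.169 to 0.0183, Cyp2c67 from -0.0784 to 0.0609, Ier2 from -0.203 to 0.125 and Hamp from -0.349 to 0.326. None of the 13 genes called changed direction in any of 20 alternative fits. Saa1, Saa2, Orm1 and Orm2 were called in all 20, Saa3 in 19, Hp in 18, Orm3 in 10, Sult1e1, Me1 and Acat1 in 8, Apcs and Mup3 in 7 and Ces2e in 6.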
